A study of Mus musculus with 6 samples.

Results

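The oxidative phosphorylation genes described here are 102 of the 31053 genes in the count matrices, taken by symbol: Ndufa, Ndufb, Ndufc, Ndufs and Ndufv for complex I, Uqcr for complex III, Cox4, Cox5, Cox6, Cox7 and Cox8 for complex IV, Atp5 for the ATP synthase, and mt-Nd, mt-Cytb, mt-Co and mt-Atp for the subunits encoded in mitochondrial DNA. Symbols with -ps were left out, and no measured value chose a gene. The set holds 89 nuclear and 13 mitochondrial genes. Complex I has 36 nuclear and 7 mitochondrial members, complex III has 8 and 1, complex IV has 19 and 3, and the ATP synthase has 17 and 2. Cyc1, a nuclear subunit of complex III, lies outside these symbols and is not among the 8. The Ndufa prefix also brought in 8 complex I assembly factors (Ndufaf), which help to build the enzyme but are not part of it, and Ndufa4l2, a relative of Ndufa4; these are given apart. Ndufa4 is counted with complex IV, where its protein is found.

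The genes were measured by single-cell RNA sequencing in 6 libraries from tumours that grew after 350000 cells of Yumm5.2, a cultured mouse melanoma line, were placed under the flank skin of C57BL/6 mice. All lines carried an shRNA against Cdkn2a; the control line added shControl, and the hairpin 1 and hairpin 2 lines each added a different shRNA against Slc39a9, a zinc transporter gene. Mice with palpable tumours received 200 µg of anti-PD1, which blocks the checkpoint receptor PD-1, or of IgG, 3 times a week into the peritoneum, and tumours were taken at 0.5 cm3. There was 1 library per line and treatment, so replicates of the knockdown are different lines, the control is 1 line, and all p-values measure only the spread between these libraries; the number of tumours in a library is not given in the sources used here. In tumour-line cells Slc39a9 stood at 22.7 and 20.98 CPM (UMIs of a gene scaled to a fixed total per library and class) in the control line under IgG and anti-PD1, at 8.58 and 8.51 in hairpin 1 and at 12.0 and 11.1 in hairpin 2, and was called lower by edgeR's quasi-likelihood test in hairpin 1 (log2 difference -1.45) and hairpin 2 (-0.98).

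Complexes I, III and IV of the respiratory chain pass electrons to oxygen and pump protons across the inner mitochondrial membrane, and the ATP synthase uses the return of those protons to make ATP. Most subunits are made from nuclear genes and imported, while mitochondrial DNA encodes core subunits of each of these 4 complexes, so that a working complex needs transcripts of both genomes. Osteoclasts, the bone-resorbing cells of the myeloid lineage, are known to be rich in mitochondria, and neutrophils to hold few.

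The 6 libraries held 43929 barcodes and 58859821 to 83204249 UMIs each, of which 43242 cells in 24 clusters were kept. Clusters were made without the 102 genes and without any other mitochondrial gene, so that the genes described do not define the classes. The tumour-line class (26294 cells) was recognised by Xist at 45.7 to 135 CPM with Y-linked genes at 1.77 to 3.04 CPM, against Y-linked genes at 175 to 571 CPM in the other 3 classes. That reading assumes a female line in male hosts. Melanocyte markers did not mark these cells: the 9 genes summed to 76.4 to 102 CPM there and to 139.6 to 159.5 CPM in macrophages, and no cluster was named melanoma-like. The macrophage class (9175 cells, including monocytes) carried its 14 markers at 32540 to 36620 CPM, the neutrophil class (1273 cells) its 12 markers at 12860 to 29330 CPM, and the osteoclast-like class (602 cells) its 10 markers at 41000 to 57890 CPM. A cluster led by MHC class II genes (2910 cells, 3.41% to 10.3% of a library) and a shallow cluster with Xist (1704 cells, 3.53% to 5.02%) stayed outside the 4 classes. Depth differed between classes: the median UMI count per cell was 9696 to 13783.5 in tumour-line cells, 2196 to 3912 in macrophages, 780 to 987 in neutrophils and 4284 to 6723 in osteoclast-like cells, over the 6 libraries.

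Promoter sequence was available from RefSeq (build GRCm38.p6) for 71 of the nuclear genes, in 76 windows of 250 bases before to 50 after the start. These windows were searched on both strands for the core letters of sites known for 2 factors of nuclear respiratory genes, NRF1 (GCGCATG) and the ETS factor GABPA (CCGGAAG); in the string GCGCATGCGC the NRF1 letters overlap their own reverse complement and count on each strand. The NRF1 letters were in 14 windows (18.4%, against 3.91% of 32851 mouse promoters), the GABPA letters in 16 (21.1%, against 8.86%) and either in 25 (32.9%, against 12.1%). The 100 bases before the start are shown for 5 genes that recur in the results, 5′ to 3′ on the strand of the gene, with matches in capitals: Cox5b, with the largest rise in osteoclast-like cells among well expressed members, Uqcrc1, a leading complex III gene there, Atp5g2 and Ndufa8, which did not pass the test there but did between tumour lines, and Ndufa4, with the largest rise between tumour lines. The stretches of Uqcrc1 and Ndufa4 hold no match, which says only that these letters are not in them. A match describes letters only, not a bound site. The starts are those of RefSeq and differ from the GENCODE gene positions used in the rest of the text. By GENCODE the stretches of Cox5b, Uqcrc1, Ndufa8 and Ndufa4 run into the gene, and the Ndufa8 match lies inside it.
Cox5b (chr1:36691387-36691486, plus strand): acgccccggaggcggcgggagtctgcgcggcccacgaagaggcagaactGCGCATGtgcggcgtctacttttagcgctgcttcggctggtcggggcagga
Uqcrc1 (chr9:108936548-108936647, plus strand): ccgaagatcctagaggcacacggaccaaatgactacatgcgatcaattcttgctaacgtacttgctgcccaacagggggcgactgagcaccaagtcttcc
Atp5g2 (chr15:102671048-102671147, minus strand): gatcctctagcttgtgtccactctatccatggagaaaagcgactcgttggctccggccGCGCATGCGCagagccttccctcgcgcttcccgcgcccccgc
Ndufa8 (chr2:36049339-36049438, minus strand): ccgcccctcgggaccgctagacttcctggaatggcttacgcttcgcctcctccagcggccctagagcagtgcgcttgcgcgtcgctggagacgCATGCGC
Ndufa4 (chr6:11907451-11907550, minus strand): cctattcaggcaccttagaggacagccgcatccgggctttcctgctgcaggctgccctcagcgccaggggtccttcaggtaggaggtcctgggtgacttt

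Genes of both genomes took their highest summed share of UMIs in osteoclast-like cells and a higher one in tumour-line cells than in macrophages. The nuclear genes took 2.34% to 2.65% of all UMIs in osteoclast-like cells, 1.06% to 1.22% in tumour-line cells, 0.818% to 0.936% in macrophages and 0.394% to 0.746% in neutrophils, and no library range overlapped the next. The 13 mitochondrial genes took 2.59% to 3.52% in osteoclast-like cells, 1.84% to 2.56% in tumour-line cells, 0.805% to 1.18% in macrophages and 0.474% to 1.51% in neutrophils, where the last 2 ranges overlapped. Exact Clopper-Pearson 95% intervals, which cover counting error only, were narrow in tumour-line cells (2.367% to 2.374% for the mitochondrial share in the control line under IgG) and widest in the 39 neutrophils of hairpin 1 under IgG (0.706% to 0.883%). Of the UMIs on the 102 genes, the mitochondrial genes held 61.5% to 69.1% in tumour-line cells, 48.3% to 55.7% in macrophages and 50.3% to 59.6% in osteoclast-like cells. In each of these 3 classes the hairpin 2 libraries were the 2 lowest. A share counts transcripts of a whole class, so a different mix of cells within the class and a different amount of RNA per cell cannot be told apart.

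**Figure D1:**
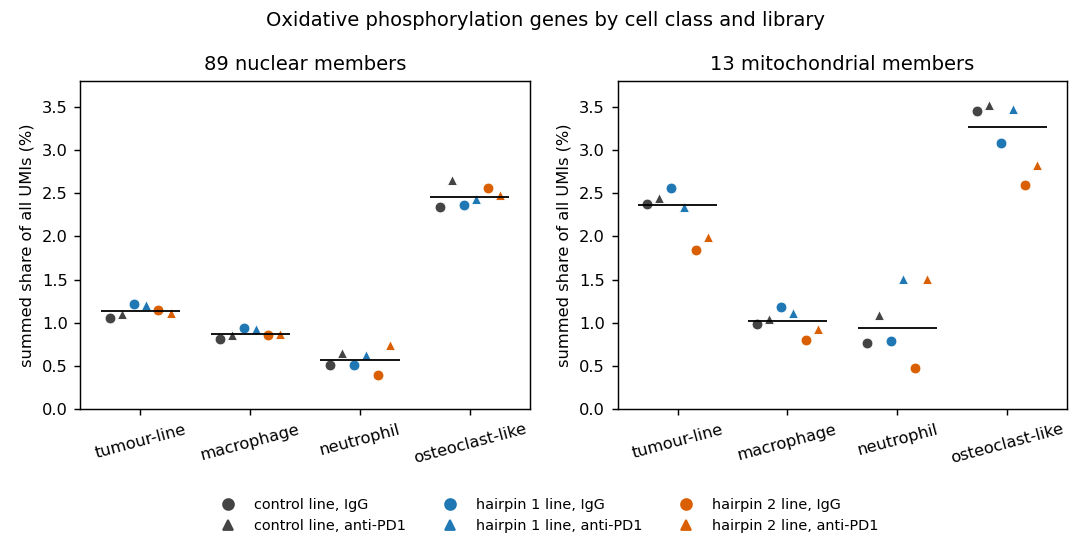
Summed share of all UMIs (%, vertical axes) on the 89 nuclear genes (left) and the 13 mitochondrial genes (right) in each cell class; each point is 1 library, colour gives the line, shape the treatment, and the bar the median of 6 libraries. Osteoclast-like cells were highest for nuclear genes in all 6 libraries (2.34% to 2.65%), and the hairpin 2 points were lowest for mitochondrial genes in tumour-line, macrophage and osteoclast-like cells.

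In osteoclast-like cells the nuclear subunits of all 4 complexes were higher than in tumour-line cells, and complex III led. Within a library, the osteoclast-like share over the tumour-line share had a median over 6 libraries of 2.86 for complex III (2.71 to 3.17), 2.30 for complex IV (1.99 to 2.59), 2.21 for the ATP synthase (1.94 to 2.43) and 1.96 for complex I (1.73 to 2.11). The same ratio was 1.43 for the mitochondrial genes (1.205 to 1.48) and 1.10 for the assembly factors (1.01 to 1.23). By edgeR's quasi-likelihood test with library as a block and Benjamini-Hochberg adjustment over 11591 genes, 74 of 83 nuclear genes tested were called higher and 2 lower at an adjusted p under 0.05, beside 66.6% of all genes called in either direction. The median log2 difference was 1.03 for these nuclear genes, 0.28 for the 13 mitochondrial genes and -0.14 for all genes. The calls covered 8 of 8 nuclear complex III genes, 14 of 14 tested for complex IV, 34 of 36 for complex I, 14 of 17 for the ATP synthase and 4 of 8 assembly factors, and 5 of 13 mitochondrial genes. The 6 nuclear members not tested, all low, were Cox4i2, Cox6a2, Cox7b2, Cox8b, Cox8c and Ndufa4l2. In osteoclast-like cells the macrophage markers summed to 4581 to 5830 CPM and the neutrophil markers, a list that shares Mmp9 with the osteoclast list, to 7274 to 12800 CPM. Red cell genes stood at 749 CPM in hairpin 1 under anti-PD1 and at 0 to 11.8 CPM in the other 5 libraries. The part of these cells in the differences was not tested.

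Cox5b, a nuclear subunit of complex IV whose promoter is shown above, lies at chr1:36691449-36693681 on the plus strand of mm10. It stood at 418, 539, 478, 430, 520 and 522 CPM in osteoclast-like cells of the 6 libraries, in the order control, hairpin 1 and hairpin 2, each under IgG and then anti-PD1, an order kept in the rest of the text. In tumour-line cells it stood at 92.5 to 110.6 CPM and in macrophages at 149 to 178 CPM, so that the 3 ranges did not overlap. The log2 difference from tumour-line cells was 2.19 ± 0.14 (SE, adjusted p = 2.0e-13, edgeR). Uqcrc2 and Uqcrc1, the core proteins of complex III, stood at 440 to 563 and 358 to 430 CPM in osteoclast-like cells against 106.5 to 130.9 and 98.4 to 128.0 CPM in tumour-line cells, with log2 differences of 2.02 ± 0.12 and 1.81 ± 0.11. The Rieske iron-sulphur protein gene Uqcrfs1 (1.79 ± 0.11) and the small subunit Uqcr10 (1.78 ± 0.11) followed. The falls were in assembly factors: Ndufaf7 was at 0 to 14.25 CPM in osteoclast-like cells and at 29.0 to 35.1 in tumour-line cells (log2 difference -1.65 ± 0.25), and Ndufaf2 differed by -0.79 ± 0.14.

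The 3 genes of the ATP synthase c-ring, Atp5g1, Atp5g2 and Atp5g3, encode the same mature protein and differed between the classes. In osteoclast-like cells Atp5g1 was higher than in tumour-line cells by 1.64 ± 0.11 on the log2 scale and Atp5g3 by 1.31 ± 0.13, whereas Atp5g2 differed by 0.07 ± 0.11 (adjusted p = 0.826, edgeR). Atp5g2 stood at 128 to 164 CPM in osteoclast-like cells and at 112 to 166 CPM in tumour-line cells, with overlapping ranges. Ndufa8, an accessory complex I subunit, did not pass the test either, at 217 to 307 CPM against 211 to 282 CPM (log2 difference 0.12 ± 0.13). The mitochondrial genes called higher were mt-Nd5 (0.71 ± 0.18), mt-Nd2 (0.67), mt-Co1 (0.67 ± 0.17), mt-Nd6 (0.61 ± 0.14) and mt-Nd1 (0.40). The other 8, mt-Co2, mt-Co3, mt-Atp6, mt-Atp8, mt-Nd3, mt-Nd4, mt-Nd4l and mt-Cytb, did not pass. Neighbouring mitochondrial genes overlap (mt-Atp8 with mt-Atp6, mt-Nd4l with mt-Nd4), and mt-Nd6, on the opposite strand to the other 12, overlaps the end of mt-Nd5. The counting rules for such reads are not given in the sources used here, so the split between these genes is uncertain.

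Against macrophages, a related myeloid class, osteoclast-like cells had 78 of 83 nuclear genes called higher and 2 lower and 13 of 13 mitochondrial genes called higher, beside 53.9% of all genes. Medians were 1.35, 1.65 and -0.03 on the log2 scale for nuclear, mitochondrial and all genes, with the mitochondrial median above the nuclear one. Uqcr10 was called higher by 2.22 ± 0.12, Atp5g3 by 2.10 ± 0.13, mt-Cytb by 2.08 ± 0.21, the catalytic ATP synthase subunit Atp5b by 2.07 ± 0.14 and Uqcrc2 by 2.05 ± 0.12. This comparison and that with tumour-line cells share the osteoclast-like libraries.

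**Figure D2:**
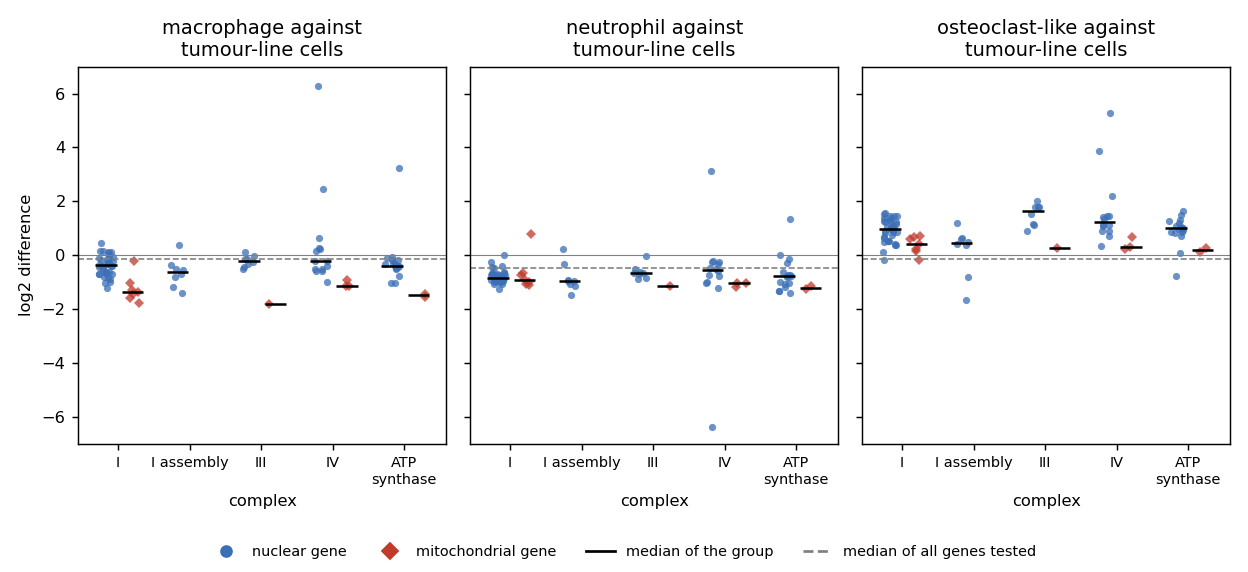
Log2 difference from tumour-line cells (vertical axis) of each gene tested in macrophages, neutrophils and osteoclast-like cells, by complex; circles are nuclear genes, diamonds mitochondrial genes, black bars medians, and the dashed line the median of all genes tested. Complex III stands highest among the osteoclast-like nuclear genes, and in macrophages the median of mitochondrial genes lies below that of nuclear genes in each complex; the far points of complex IV (Cox6b2 and Cox7a1) rest on few counts.

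Counts for related mitochondrial gene lists in osteoclast-like cells, against tumour-line cells, stand beside the 66.6% of all genes called in either direction. All 4 complex II genes were called higher, with Sdhb at 2.18 ± 0.14 and Sdha, the flavoprotein, at 2.14 ± 0.13. In the citrate cycle 12 of 14 genes were called higher and 1 lower (Idh3a 1.82 ± 0.13, Fh1 1.58 ± 0.13, Suclg2 -0.40 ± 0.16). Among genes that gate pyruvate and lactate 9 of 10 tested were higher and 1 lower, led by the pyruvate carrier subunit Mpc2 (2.30 ± 0.12) and Pdhb of pyruvate dehydrogenase (1.69 ± 0.11). The mitochondrial ribosome had 43 of 77 tested higher and 8 lower, mitochondrial DNA expression 7 of 18 higher and none lower, complex IV assembly 13 of 21 higher and 4 lower, and complex II assembly 3 of 4 higher. The list of complex III assembly, Cyc1 and cytochrome c had 6 of 8 tested higher and 2 lower, Uqcc2 (-1.09 ± 0.14) and Ttc19 (-0.69 ± 0.19). The rises were led by cytochrome c1 (Cyc1, 1.39 ± 0.13), a subunit of complex III itself, and Cycs (1.19 ± 0.13). Among regulators 2 of 9 tested were higher, Ppargc1b (6.12 ± 0.18), a coactivator of mitochondrial gene transcription, and Esrra (1.95 ± 0.11), the nuclear receptor it works with; 2 were lower, among them Hif1a (-1.64 ± 0.17), the hypoxia factor. The mitochondrial stress list had 1 of 8 higher and 5 lower, among them Atf5 (-2.32 ± 0.23) and Ddit3 (-1.71 ± 0.21).

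In macrophages both genomes were lower than in tumour-line cells, the mitochondrial one by more. The macrophage share over the tumour-line share within a library was 0.748 to 0.784 for nuclear genes and 0.416 to 0.477 for mitochondrial genes. EdgeR called 53 of 83 nuclear genes lower and 7 higher, and 12 of 13 mitochondrial genes lower, beside 80.8% of all genes called. The exception was mt-Nd6 (-0.23 ± 0.11, adjusted p = 0.0562). The median log2 difference was -0.36 for nuclear, -1.36 for mitochondrial and -0.13 for all genes. Classes were also widened, with the MHC class II cluster joined to macrophages and the shallow Xist cluster to tumour-line cells. EdgeR then called 46 nuclear genes lower and 13 higher, and 12 mitochondrial genes lower. Of all genes 4836 were then higher and 4962 lower.

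The lowest mitochondrial gene relative to tumour-line cells was mt-Cytb, the mitochondrial subunit of complex III. It stood at 661, 676, 829.5, 812, 516 and 599 CPM in macrophages and at 1851 to 2650 CPM in tumour-line cells, with no overlap (log2 difference -1.80 ± 0.21, adjusted p = 9.7e-09, edgeR). Next came mt-Nd3 (-1.76 ± 0.17), mt-Nd4l (-1.58 ± 0.11), mt-Atp8 (-1.55 ± 0.16) and mt-Atp6 (-1.42 ± 0.19), while mt-Co1 differed by -0.92 ± 0.17. Of the 8 nuclear complex III genes in the set 4 were called lower, with a median of -0.20. Cyc1, a nuclear complex III subunit outside the set, was also called lower (-1.07 ± 0.12). Cox5b (0.65 ± 0.13), Ndufa3 (0.44 ± 0.13), the assembly factor Ndufaf3 (0.39 ± 0.16) and Cox5a (0.28 ± 0.11) were called higher, as were Cox6b2, Cox7a1 and the second gene named Atp5o, which are at low counts and described below. The citrate cycle had 11 of 14 genes lower and 1 higher, the mitochondrial ribosome 49 of 77 lower and 3 higher, and the stress list 8 of 8 tested lower, with Hspd1, the mitochondrial chaperonin, at -1.65 ± 0.14.

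In neutrophils 68 of 83 nuclear genes and 12 of 13 mitochondrial genes were called lower than in tumour-line cells and 1 mitochondrial gene higher, beside 67.5% of all genes. The medians were -0.76 for nuclear, -1.04 for mitochondrial and -0.48 for all genes. With library totals that leave out mitochondrial genes and without TMM scaling the median of all genes was -0.66, and 73 nuclear genes were called lower. All 3 c-ring genes were low: Atp5g3 by -1.42 ± 0.16, Atp5g2 by -1.33 ± 0.17 and Atp5g1 by -1.31 ± 0.18, and so was Ndufa9 of complex I (-1.26 ± 0.17). mt-Nd6, the gene called higher (0.79 ± 0.18), rests on 29, 44, 4, 2, 9 and 15 UMIs in the 6 libraries. The citrate cycle had 12 of 14 genes lower and the mitochondrial ribosome 67 of 77 lower and 2 higher.

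The neutrophil values differed with depth. Only 125 of the 1273 cells had at least 2000 UMIs, 2 to 52 per library, and they held 11.5% to 59.9% of the class's UMIs. In these the median share over libraries was 0.852% nuclear and 1.90% mitochondrial, against 0.389% and 0.480% in cells under 2000 UMIs. The shares in all neutrophils were higher under anti-PD1 than under IgG in each of 3 lines: the nuclear share was 0.513%, 0.647%, 0.506%, 0.626%, 0.394% and 0.746%, and the mitochondrial share 0.767%, 1.09%, 0.791%, 1.51%, 0.474% and 1.51%. In cells under 2000 UMIs the nuclear share was 0.392%, 0.401%, 0.468%, 0.348%, 0.386% and 0.377%. The mitochondrial share there was 0.485%, 0.622%, 0.517%, 0.472%, 0.475% and 0.414%. Both were higher under anti-PD1 in the control line only. In cells with at least 2000 UMIs both were higher under anti-PD1 in each of 3 lines. The nuclear share there was 0.73%, 0.974%, 0.680%, 0.980%, 0.460% and 0.992%. The mitochondrial share was 1.27%, 1.72%, 2.07%, 2.82%, 0.469% and 2.24%. These rest on 33, 52, 2, 9, 4 and 25 cells, and the part of depth was not tested. Xist, the tumour-line mark, stood at 0 to 48.0 CPM and macrophage markers at 841 to 3154 CPM in the neutrophil class, and their part in these shares was not tested.

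Alternative and tissue-restricted subunits were low throughout the 4 classes. Cox8b was at 0 in all 4 classes of every library, and Cox8c and Cox7b2 did not exceed 0.186 CPM. Cox6b2, known from testis, stood at 4.83 to 5.98 CPM in macrophages, at 0 to 7.62 in osteoclast-like cells and at 0.125 CPM or less in tumour-line cells (log2 difference of macrophages 6.29 ± 0.32, edgeR). Cox7a1, the heart and muscle form of subunit VIIa, stood at 2.23 to 5.79 CPM in macrophages and 2.78 to 14.25 in osteoclast-like cells against 0.506 to 0.855 in tumour-line cells, and at 0 in all neutrophils; its log2 differences were 2.45 ± 0.27 and 3.87 ± 0.39. Cox6a2 stood at 0.682 to 2.31 CPM and Cox4i2 at 1.72 to 3.50 CPM in macrophages, and Cox4i2 was at 0 in osteoclast-like cells. Cox4i1, the common form of subunit IV, stood at 824.5 to 932.5 CPM in tumour-line cells, 722 to 812 in macrophages, at most 667.5 in neutrophils and 1834 to 2130 in osteoclast-like cells, with the last range above the others. The common forms Cox6b1 and Cox7a2 stood at 103 to 118 and at 99.3 to 120.3 CPM in tumour-line cells. The second gene that carries the symbol Atp5o was called higher in macrophages (3.23), but it shares its name and possibly reads with the main Atp5o gene, which leaves its counts uncertain.

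Ndufa4l2 and Cox4i2, the alternative forms of Ndufa4 and Cox4i1 known from hypoxic and contractile cells, stood apart in a small cluster of host cells. Cluster 18 (213 cells, 0.493% of all), led by Rgs5 and carrying 7 of 7 fibroblast and pericyte markers raised, held 86 of 217 Ndufa4l2 UMIs (39.6%) and 41 of 180 Cox4i2 UMIs (22.8%). Its Ndufa4l2 level was 43.0, 100.8, 296, 68.8, 88.6 and 147 CPM from 9, 32, 16, 4, 7 and 18 UMIs, and its Cox4i2 level 9.55, 0, 204, 103, 63.3 and 139 CPM. Pooled over libraries these are 102.3 and 48.8 CPM, and the next clusters reached 6.05 CPM for Ndufa4l2 (endothelial) and 3.79 CPM for Cox4i2 (a macrophage cluster). Rgs5, a pericyte gene, also varied widely in this cluster, from 69.3 to 6958 CPM, and with 13 to 74 cells per library no test was made. In tumour-line cells Ndufa4l2 was at 0.0417 to 0.434 CPM.

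**Figure D3:**
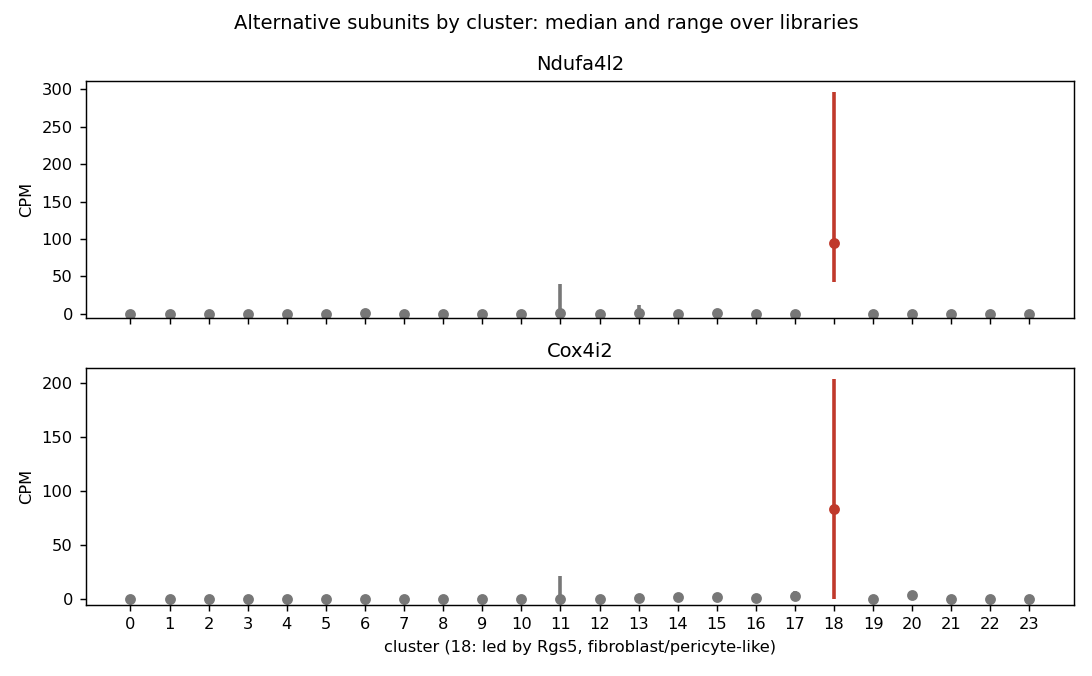
Level in CPM (vertical axes) of Ndufa4l2 and Cox4i2 in each of 24 clusters (horizontal axis); points are medians and lines the range over libraries. Cluster 18, in red, has the highest median of both genes, with a range of 43.0 to 296 CPM for Ndufa4l2 and 0 to 204 CPM for Cox4i2.

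The hairpin 2 libraries had a lower share of mitochondrially encoded UMIs than the control libraries, in tumour-line cells and in macrophages. With 1 library per line and treatment, a difference of the line and one of its tumours or libraries cannot be told apart. In tumour-line cells the mitochondrial share was 2.37% and 2.44% in the control line, 2.56% and 2.35% in hairpin 1, and 1.84% and 2.00% in hairpin 2. By edgeR with line and treatment as terms, 9 of 13 mitochondrial genes were called lower in hairpin 2, and 4 of 83 nuclear genes were called higher and 3 lower, beside 14.8% of all genes. All 13 mitochondrial values lay below 0, with a median log2 difference of -0.35, against 0.04 for nuclear genes and 0.00 for all genes. With totals without mitochondrial genes and no TMM scaling, 8 mitochondrial genes were called lower, 6 nuclear genes higher and 3 lower, while calls of all genes went from 1204 higher and 1152 lower to 1797 and 872. By complex, 5 of 7 complex I genes, mt-Cytb of complex III and 3 of 3 complex IV genes were called, and neither of the 2 ATP synthase genes. In cells of the 10 tumour-line clusters taken singly, the hairpin 2 mitochondrial share lay below that of the control line in 10 of 10 clusters under either treatment (median log2 ratio -0.44 and -0.35). Here and below, clusters and genes of the same libraries are not replicates of each other.

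The largest fall was in mt-Nd5, a proton-pumping subunit of complex I, at 738, 803, 791, 706, 533 and 538 CPM, with both hairpin 2 libraries below the other 4 (log2 difference -0.59 ± 0.08, adjusted p = 0.00711, edgeR). mt-Co1, the catalytic subunit of complex IV, stood at 7952, 8146, 8620, 7988, 5662 and 6421 CPM, again with hairpin 2 lowest (-0.48 ± 0.09). mt-Cytb differed by -0.49 ± 0.09 and mt-Nd4l by -0.51 ± 0.07. The smallest differences were in mt-Atp8 (-0.15 ± 0.07), mt-Nd1 (-0.21 ± 0.07), mt-Nd3 (-0.21 ± 0.06) and mt-Atp6 (-0.30 ± 0.08), which did not pass. In hairpin 1 mt-Nd4l (-0.33 ± 0.07) and mt-Nd6 (-0.33 ± 0.06) were lower, while mt-Nd5 (-0.14 ± 0.08), mt-Co1 (-0.05 ± 0.09) and mt-Cytb (-0.16 ± 0.08) did not pass. The counts of calls rest on single libraries: against 16 in all, edgeR made 3 without the control library under IgG, 9 without the control under anti-PD1 and 2 without hairpin 2 under IgG.

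Macrophages of hairpin 2 tumours are host cells that were not given the hairpin. There no nuclear gene of 85 passed in either direction by edgeR, beside 8.94% of all genes called. Of the nuclear genes 5 had an unadjusted p under 0.05 by edgeR, beside 2401 of 12030 genes in all. DESeq2 called 0 nuclear genes, beside 111 higher and 196 lower of all genes. EdgeR called 4 of 13 mitochondrial genes lower. These were mt-Nd5 (-0.40 ± 0.08), mt-Co1 (-0.38 ± 0.07), mt-Cytb (-0.31 ± 0.07) and mt-Atp6 (-0.24 ± 0.07). mt-Co1 stood at 4080, 4328, 4543, 4321, 3078 and 3604 CPM, with the hairpin 2 libraries lowest. The share lay below control in 4 of 5 macrophage clusters under IgG and 5 of 5 under anti-PD1. Whether the fall differed between tumour-line cells and macrophages was not tested. The count was 2 without the control library under IgG or hairpin 2 under IgG, and 7 without hairpin 1 under anti-PD1. With the other scaling 3 mitochondrial genes were called, and calls of all genes went from 489 higher and 587 lower to 641 and 447. With the cluster led by MHC class II genes counted as macrophages, 2 mitochondrial genes and 1 nuclear gene were called lower. Of all genes 471 were then higher and 652 lower. That cluster held 3.41%, 5.06%, 6.99%, 5.32%, 10.3% and 9.17% of the cells of the 6 libraries. Osteoclast-like cells had mitochondrial shares of 3.45%, 3.52%, 3.09%, 3.48%, 2.59% and 2.83%, and there too hairpin 2 was lowest. The 12 neutrophil markers summed to 1368 and 1343 CPM in control macrophages and to 597 to 847 CPM in the other 4 libraries (9 of 10 tested called lower in each hairpin line). The 10 osteoclast markers summed to 431 and 466 CPM in control macrophages and to 281 and 266 CPM in hairpin 2, with 5 of 8 tested called lower, and osteoclast-like cells had the highest mitochondrial share of the 4 classes. The part of either list in the result was not tested.

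**Figure D4:**
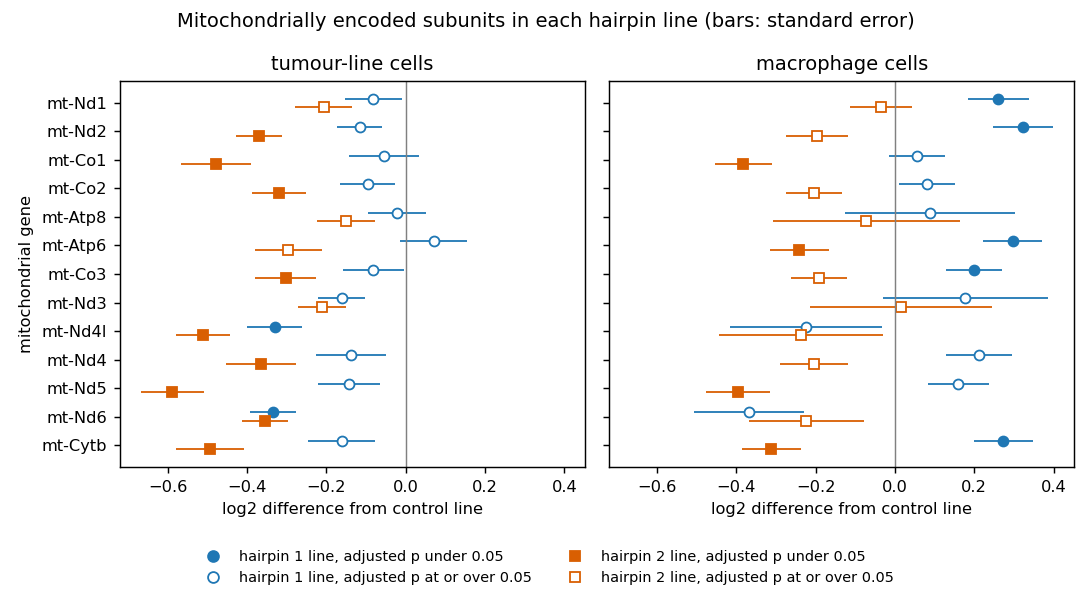
Log2 difference from the control line (horizontal axis) of the 13 mitochondrial genes in tumour-line cells (left) and macrophages (right), for hairpin 1 (circles) and hairpin 2 (squares); bars are standard errors and filled symbols passed the adjusted p threshold of 0.05. Hairpin 2 lay below 0 for 13 genes in tumour-line cells and 12 in macrophages, and hairpin 1 above 0 for 11 in macrophages.

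In the hairpin 1 line single nuclear subunits moved in tumour-line cells, in both directions. EdgeR called 16 of 83 nuclear genes higher and 8 lower and 2 of 13 mitochondrial genes lower, beside 42.1% of all genes. In this fit members of both genomes were thus called less often than genes at large. The calls were 6 higher and 2 lower for complex I, 2 and 1 for complex III, 2 and 1 for complex IV, 4 and 0 for the ATP synthase and 2 and 3 for assembly factors. Ndufa4l2, at the 17, 30, 4, 2, 11 and 19 UMIs of all tumour-line cells, was the eighth fall. Scaling mattered: with totals without mitochondrial genes and no TMM, the nuclear calls were 36 higher and 6 lower, while those of all genes went from 3304 higher and 3377 lower to 4577 and 2405 and the median of all genes from 0.00 to 0.10. Against 26 calls in all, there were 14 without the control library under anti-PD1 and 17 without hairpin 1 under anti-PD1. The mix of clusters differed: cluster 7, led by Postn, held 1136 of 3080 and 1399 of 3456 hairpin 1 cells but 186 of 4727 and 183 of 4930 control cells. Other signs moved too: Malat1 (log2 difference -0.60) and Cdkn2a (-0.72) were called lower and Xist (0.98) higher, as were 3 of 3 red cell genes and 4 of 7 fibroblast and pericyte genes (2 lower), while 8 of 11 neutrophil markers tested were lower and 1 higher. Their part in the subunit changes was not tested. Within clusters the nuclear share of hairpin 1 lay above control in 9 of 10 under IgG and 7 of 10 under anti-PD1.

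Ndufa4 (chr6:11900292-11907497, minus strand, mm10) had the largest rise among well expressed members. It stood at 95.5, 101.6, 172, 189, 143 and 125 CPM in tumour-line cells, with both hairpin lines above the control and hairpin 1 highest. The log2 difference was 0.77 ± 0.08 in hairpin 1 (adjusted p = 0.000555, edgeR) and 0.38 ± 0.08 in hairpin 2 (adjusted p = 0.0250). The complex I subunit Ndufa5 (46.6, 55.1, 75.5, 76.4, 67.9 and 66.4 CPM) and the complex IV subunit Cox6c (223, 250, 340.2, 338, 297 and 297 CPM) also stood above both control libraries in the other 4. Ndufa5 differed by 0.48 ± 0.07 and 0.34 ± 0.07, and Cox6c by 0.42 ± 0.06 and 0.27 ± 0.06, in hairpin 1 and hairpin 2. The hairpin 2 rises of Ndufa4, Ndufa5 and Cox6c did not pass without the control library under IgG or without hairpin 2 under IgG, and that of Cox6c also not without the control or hairpin 2 library under anti-PD1.

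Ndufb8 of complex I (81.7, 87.4, 123, 124, 104 and 95.3 CPM) was called in hairpin 1 (0.45 ± 0.06) and not in hairpin 2 (0.17 ± 0.06, adjusted p = 0.114), as was Atp5g2 (112, 116, 162, 166, 121 and 124 CPM; 0.42 ± 0.05 and 0.04 ± 0.05). The difference between the hairpin lines was not tested. In the other direction Ndufa8 stood at 282, 276.5, 210.6, 217.5, 250.2 and 231 CPM, with all 4 hairpin libraries below the control (-0.48 ± 0.06 and -0.28 ± 0.06). Uqcrq, the small complex III subunit, stood at 223, 245.5, 197, 175.0, 230.4 and 223 CPM and was lower in hairpin 1 (-0.44 ± 0.08), while hairpin 2 overlapped the control. Cox7a2l, which takes part in joining complexes III and IV, stood at 209, 208.5, 196, 185, 174.5 and 177 CPM (-0.23 ± 0.06 and -0.31 ± 0.06). Ndufb3 rose in hairpin 2 (0.30 ± 0.07), and Ndufaf7 (-0.35 ± 0.06) and Ndufaf4 (-0.34 ± 0.05) fell in hairpin 1.

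Counts for the related lists stand beside 42.1% of all genes called in hairpin 1 and 14.8% in hairpin 2. The mitochondrial stress genes had 2 of 9 called higher and 7 lower in hairpin 1, with 5 of 9 lower in hairpin 2. The falls were led by Atf5 (-0.87 ± 0.11 and -0.47 ± 0.10) and Ddit3 (-0.82 ± 0.12 and -0.67 ± 0.12), transcription factors of the stress response, and the rises in hairpin 1 were the chaperonin genes Hspe1 (0.33 ± 0.07) and Hspd1 (0.30 ± 0.07). Of the 11 genes that gate pyruvate and lactate, 4 were called higher and 1 lower in hairpin 1. In hairpin 2 these were 1 higher and 3 lower. Ldhb, the lactate dehydrogenase form of oxidative tissues, rose by 0.94 ± 0.07 and 0.58 ± 0.07, and Ldha fell by 0.35 and 0.36 on the log2 scale. Pdk3 was called higher in hairpin 1 (0.46 ± 0.07) and Pdk1 lower in hairpin 2 (-0.49 ± 0.08). In hairpin 1 the test called 5 of 14 citrate cycle genes up and 2 down, and 12 of 78 mitochondrial ribosome genes up and 11 down. In hairpin 2 these were 0 and 1 for the citrate cycle and 5 and 2 for the ribosome. No complex II gene of 4 passed in either line. Both lines were compared with the same control libraries.

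**Figure D5:**
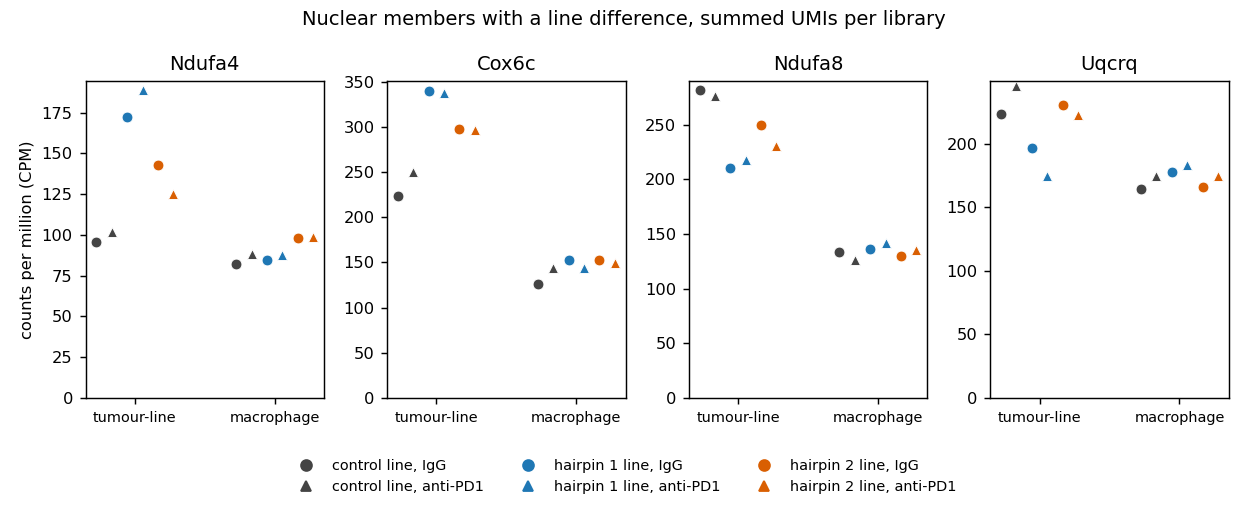
Level in CPM (vertical axes, from 0) of Ndufa4, Cox6c, Ndufa8 and Uqcrq in tumour-line cells and macrophages; each point is 1 library, colour gives the line and shape the treatment. In tumour-line cells the control points are lowest for Ndufa4 and Cox6c and highest for Ndufa8, and in macrophages Ndufa4 lay between 82.1 and 98.9 CPM in all 6 libraries.

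In macrophages of hairpin 1 tumours 9 of 85 nuclear and 5 of 13 mitochondrial genes were called higher and none lower, beside 18.2% of all genes. The ATP synthase gave 6 of the 9: Atp5g2 (0.42 ± 0.11), Atp5g1 (0.32 ± 0.09), the main Atp5o gene (0.30 ± 0.09), Atp5b (0.29), Atp5d (0.28) and Atp5j2 (0.25). Atp5g2 stood at 54.4, 57.2, 83.3, 69.0, 61.9 and 69.9 CPM there, and the hairpin 2 libraries overlapped hairpin 1. The complex I calls were Ndufab1 (0.33 ± 0.12), Ndufa9 and Ndufs8, and the mitochondrial ones mt-Nd2 (0.32 ± 0.08), mt-Atp6 (0.30), mt-Cytb (0.27 ± 0.07), mt-Nd1 (0.26) and mt-Co3 (0.20). With the cluster led by MHC class II genes counted as macrophages, edgeR called 7 nuclear and 4 mitochondrial genes higher. Of all genes 1009 were then higher and 1117 lower. DESeq2 called 2 genes in place of 14, beside 327 higher and 403 lower of all genes. Both were mitochondrial: it called 0 of the 85 nuclear genes, so none of the ATP synthase calls above passed there. The count was 3 without the control library under IgG, 5 without the control under anti-PD1 and 2 without hairpin 1 under IgG. In the same comparison 9 of 10 neutrophil markers, 4 of 8 osteoclast markers (1 higher) and 2 of 5 fibroblast and pericyte markers tested were called lower, and so were Malat1 (log2 difference -0.22) and Cdkn2a (-1.13); their part in the result was not tested.

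The difference of the hairpin 1 effect between macrophages and tumour-line cells was tested as an interaction. It was called higher in macrophages for 6 of 86 nuclear and 6 of 13 mitochondrial genes and lower for 3 nuclear genes, beside 12.3% of all genes. Ndufa4, which rose in tumour-line cells, stood at 82.1, 88.3, 84.9, 87.8, 97.9 and 98.9 CPM in macrophages, and the interaction was -0.77 ± 0.11 (adjusted p = 0.000105, edgeR). Ndufa8 (0.56 ± 0.10) and Uqcrq (0.51 ± 0.11), which fell in tumour-line cells, went the other way, as did mt-Nd2 (0.44 ± 0.09) and mt-Cytb (0.44 ± 0.08). With the other scaling the nuclear calls were 3 higher and 4 lower and the mitochondrial 4 higher, while calls of all genes went from 1117 higher and 877 lower to 817 and 1159. The 15 calls came to 9 by DESeq2, and to 4, 9 and 8 without the control library under IgG, the control under anti-PD1 and hairpin 1 under anti-PD1.

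With both hairpin lines joined as the knockdown, the fits took all 6 libraries as independent. Deviations of libraries from the same hairpin line correlated at 0.70 in tumour-line cells, so a line was counted more than once. No gene of the set passed in tumour-line cells (edgeR, 0 of 83 nuclear and 0 of 13 mitochondrial), beside 0.0% of all genes. At an unadjusted p under 0.05 by edgeR there were 9 nuclear and 3 mitochondrial genes, beside 3125 of 15877 genes in all. DESeq2 called 3 nuclear genes higher, 2 lower and 2 mitochondrial genes lower, beside 732 higher and 671 lower of all genes. All 13 mitochondrial values were below 0 (median -0.24). In macrophages the knockdown gave 0 of 85 and 0 of 13, beside 0.698% of all genes. At an unadjusted p under 0.05 by edgeR there were 5 nuclear and 0 mitochondrial genes, beside 1737 of 12030 genes in all. DESeq2 called 0 members, beside 137 higher and 120 lower of all genes. EdgeR calls of all genes in macrophages went from 31 higher and 53 lower to 37 and 41 with the other scaling.

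Anti-PD1 against IgG gave no call among the genes in tumour-line cells or macrophages, beside 0.0% and 0.0% of all genes called. None had an unadjusted p under 0.05 by edgeR in either class, against 125 and 247 of all genes, and DESeq2 called 0. This fit held genotype and treatment but no line term, so differences between the hairpin lines stayed in its residual spread. The lack of low p-values therefore does not show a lack of difference. The median log2 difference was -0.00285 for nuclear and -0.02 for mitochondrial genes in tumour-line cells, and 0.04 and 0.07 in macrophages. mt-Co1 in tumour-line cells, for example, was higher under anti-PD1 in the control and hairpin 2 lines and lower in hairpin 1.

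Within the tumour-line class the nuclear share was lowest in cluster 8, led by Pgf with the hypoxia genes Slc2a1, Bnip3 and Ankrd37 among its leading genes (0.840% to 0.902% over libraries), and in cluster 9, led by Saa3 (0.876% to 0.966%). It was highest in clusters 0 (led by Nefl), 1 (led by the mitotic gene Ube2c) and 4 (led by Clstn2), with medians of 1.23% in each. Cluster 4 is in this class by Xist. Of the marker lists it matched fibroblasts and pericytes best, with 3 markers raised and 1 among its leading genes. The mitochondrial share ranged from a median of 1.94% in cluster 10, led by interferon-induced Ifit1, to 2.88% in cluster 4. The 2 shares did not order the clusters alike: cluster 1 had a mitochondrial median of 2.19% and cluster 5, led by Itm2a, 2.81% beside a nuclear median of 1.09%. Among macrophage clusters the shallow cluster 16 had the highest nuclear share (median 1.17%) and the interferon-responding cluster 20 the lowest (0.722%).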

How the data were processed

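Single-cell RNA was measured in 6 libraries. The deposited matrices hold whole-number UMI counts per gene and barcode, made by the authors with Cell Ranger 7.0.1 on mm10, per the submitters' processing notes; the gene annotation release is not given in the sources used here. Barcodes with at least 300 genes and at most 20% mitochondrial UMIs were kept (43872 of 43929 passed the first and 29 failed the second), and 601 doublets called by Scrublet (expected rate 0.06) were removed. Barcode names are shared between libraries (9556 of 13064 distinct names in 2 or more) and follow the order of depth (Spearman rho -0.994 to -0.984), so they were read as labels within a library and do not show shared cells. Cells were clustered with scanpy 1.11.5 (2000 variable genes, 30 components, 15 neighbours, Leiden resolution 1) without the 102 genes, and clusters were named by fixed marker lists.

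UMIs were summed per library and class and tested with edgeR 4.0.16 (R 4.3.3; TMM, filterByExpr, quasi-likelihood), adjusted by Benjamini-Hochberg over all genes. Standard errors, also those drawn as bars, are the absolute log2 difference divided by the square root of the test's F statistic. Classes were compared with library as a block. Lines and treatment were terms of the fit within a class, with 2 residual degrees of freedom. For knockdown and anti-PD1 the terms were genotype and treatment, without line, with 3 residual degrees of freedom. DESeq2 1.42.0, no filter on low counts, no mitochondrial filter, other totals, and leaving out each library were alternatives; wider classes and shallow neutrophils were added after the data were seen. CPM divides by the class's UMIs in the library. The script was tested on simulated data.

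The libraries of a line under IgG and anti-PD1 come from the same cell line and so pair; the deviations of libraries from the same hairpin line correlated at 0.70 in tumour-line cells and 0.489 in macrophages. Named genes are all mitochondrial members, the 5 largest called rises and falls of each comparison among members with a mean of at least 20 CPM, the alternative isoforms, and 2 rises and 2 falls of each related list. Some further called members outside this rule were chosen after their values were seen. The members and lists were chosen with earlier results of these data known. Positions are from GENCODE M21 on mm10, and promoters from RefSeq on GRCm38.p6.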

Additional observations from a re-analysis of the deposited data

Results flagged for a closer look

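The hairpin 1 difference from the control line itself differed between macrophages and tumour-line cells for 15 genes, by edgeR's interaction test with Benjamini-Hochberg adjustment. These are 15 of the 86 nuclear and 13 mitochondrial genes tested, beside 12.3% of all genes called, a share near that of the members. DESeq2 called 9, and edgeR 4 without the control library under IgG. Values are the log2 difference in macrophages minus that in tumour-line cells. For Ndufa4 it was -0.77, for Ndufa6 -0.39 and for Cox6c -0.31. Of the mitochondrial genes, mt-Co3 was at 0.28, mt-Nd5 at 0.31, mt-Nd1 at 0.34, mt-Nd4 at 0.35, mt-Cytb at 0.44 and mt-Nd2 at 0.44. The nuclear genes Cox7a2l (0.30), Ndufa7 (0.33), Ndufab1 (0.44), Uqcrq (0.51) and Ndufa8 (0.56) were also higher. Ndufa4l2 was at 4.74 on few UMIs (17, 30, 4, 2, 11 and 19 in tumour-line cells and 1, 5, 12, 10, 0 and 4 in macrophages).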

How the results depend on the processing

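Each count of called members was recomputed under the alternatives, and none of the named genes changed direction: of their values 636 stayed on the same side of the threshold and 65 no longer passed. DESeq2 gave 7 for the knockdown in tumour-line cells against 0 by edgeR, 2 for hairpin 1 in macrophages against 14, and 9 for the interaction against 15. Totals without mitochondrial genes and without TMM gave 44 for hairpin 1 in tumour-line cells against 26, and no filter on low counts gave 7 for hairpin 2 in macrophages against 4. In neutrophils the nuclear share was 0.852% in cells with at least 2000 UMIs and 0.389% below, against 0.570% in all, and the mitochondrial share 1.90% and 0.480% against 0.942%. The cause of these changes was not tested. Leaving out 1 library at a time gave 14 to 26 calls for hairpin 1 and 2 to 18 for hairpin 2 in tumour-line cells, 2 to 16 and 2 to 7 in macrophages, and 4 to 21 for the interaction. It gave 61 to 69 for macrophages, 62 to 78 for neutrophils and 79 to 84 for osteoclast-like cells against tumour-line cells, 92 to 93 for osteoclast-like cells against macrophages, and 0 to 0 for the knockdown and for anti-PD1 in both classes. With the line as a replicate block, anti-PD1 gave 0 calls in tumour-line cells and 0 in macrophages, so the block changed no call. With 1 library per line and treatment, the spread between animals was not measured, and the 39 neutrophils of 1 library limit that class.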
